A study of Mus musculus with 9 samples.

Results

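Plexins, semaphorins and Robo receptors are guidance molecules that steer growing axons and growing vessels. The 10 genes of these families read here have roles in vessels. They comprise 4 plexin receptors (Plxnd1, Plxna1, Plxna2, Plxnb2), 4 semaphorin ligands (Sema3c, Sema3e, Sema4a, Sema4c) and 2 Robo receptors (Robo1, Robo4). They were chosen by name, with earlier results of these data known. Each probe set to which the platform annotation gave exactly 1 gene symbol, that of a member, was taken. That gave 20 probe sets for the 10 genes, out of 29131 probe sets with 1 symbol for 15964 genes.

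The cells were GFP-positive cells sorted from pooled retinas of mouse pups at postnatal day 8. The pups were homozygous Tie2-GFP transgenics, in which the promoter of the endothelial receptor gene Tie2 (Tek) drives GFP, and they had been injected intraperitoneally from postnatal day 0 to day 7 with APB5, an antibody that neutralizes PDGFRb. PDGFRb is the receptor by which pericytes are recruited to capillaries, and the series describes the retinas as without pericyte coverage. The 9 arrays were 3 replicates on each of the Affymetrix MG-U74v2 designs A, B and C, which carry different probe sets. All arrays had the same genotype, age and treatment, with no untreated group, so the effect of the antibody cannot be read from them. Some blood cells also use the Tie2 promoter, and such cells would have passed the sort.

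Semaphorins are secreted or membrane-bound ligands, and plexins are their receptors. Most secreted class 3 semaphorins need neuropilins as co-receptors, whereas Sema3E binds plexin-D1 directly and restrains endothelial sprouting. In the developing retina Sema3e is made by ganglion cells and Plxnd1 by endothelium. Robo1 is a Slit receptor of many cell types, and Robo4 is the Robo found mainly in endothelium, where it limits vessel leak.

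Replicate arrays lay close together. Across probe sets, r between the log2 intensities of replicate arrays was at least 0.981 and at most 0.987, and array medians lay between 32.3 and 44.5. Endothelial markers stood high, with 27 of 32 probe sets above the floor defined below and a median percentile of 93.8, and Tek itself lay at percentile 92.6 ± 0.26 (SD, n = 3). Mural markers had a median percentile of 39.4 and retinal neuron markers of 33.5. Whether each replicate had its own pool of pups is not in the labels, so p-values measure an array-to-array spread that may be technical.

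A percentile here is the share of the probe sets of an array that read lower than the one named. For a gene with several probe sets, the mean percentile averages them by replicate number, also across designs. The SD of such a mean covers the 3 averages and not the spread between probe sets. Across designs it depends on the match of replicate numbers, which the sample titles do not tie to a shared RNA. The floor is the 40th percentile of each array, between 33.5 and 35.1 intensity units on designs A and B and between 25.3 and 25.4 on design C. A probe set was called above or below the floor by limma on log2 intensity minus log2 floor over the 3 arrays, at an adjusted p under 0.05. Probe sets differ in how well they hybridise, so these positions give no order of transcript levels between genes, and a probe set below the floor leaves the presence of its transcript unmeasured.

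The guidance genes did not form a group that was high or low. Of the 20 probe sets, 10 were called above the floor and 8 below, beside 54% and 34% of all 36701 probe sets. The same number, 10, exceeded the floor on each of the 3 arrays, beside 56.5% of all probe sets and 58.7% of single-symbol ones. At least 1 probe set exceeded it for 8 of 10 genes, beside 72.4% of all named genes. These shares are near the background. The median percentile was 48.8, beside 52.1 for all single-symbol probe sets. The 20 probe sets lay between percentile 5.71 and 96.9, and all single-symbol ones between 0.027 and 100. A wide range is thus not particular to these families. At 90 or more lay 2 of 20, those of Plxnd1 and Robo4, beside 10.7% of single-symbol probe sets.

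**Figure D1:**
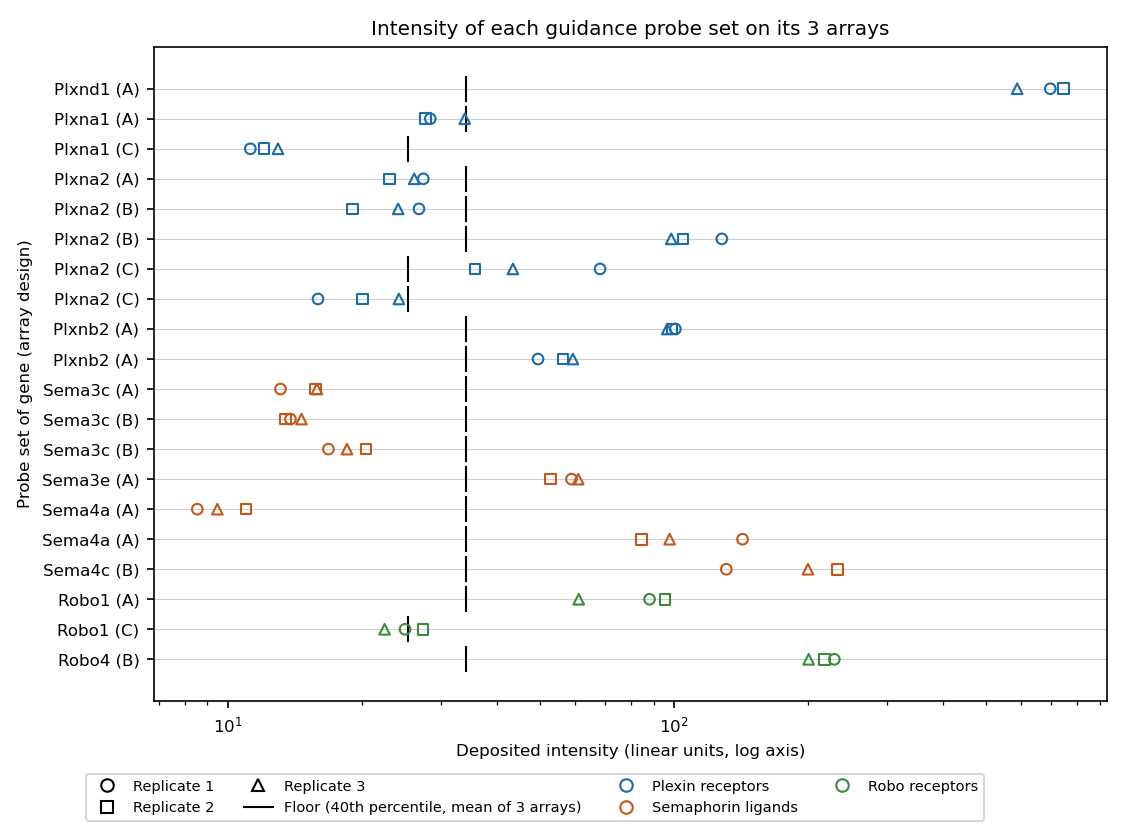
Deposited intensity (x axis, log scale) of each of the 20 guidance probe sets, with a symbol for each of the 3 replicate arrays and a vertical tick at the floor of the design. Plxnd1 reads between 588 and 747 and Robo4 between 200.3 and 229, while the 3 Sema3c probe sets stay between 13.1 and 20.4.

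Among the receptors, Plxnd1, the receptor of Sema3E, had the highest position. Its probe set on design A (97967_at) read 697, 747 and 588 in replicates 1, 2 and 3. Each array was far above its floor, by 16.9-fold at the least, and replicate 3 was the lowest. The mean was 677 ± 81.5 (SD, n = 3), at percentile 96.9 ± 0.28. The log2 difference from the floor was 4.30 ± 0.095 (SE; limma, adjusted p = 9.7e-08).

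Plxnb2, a plexin that class 4 semaphorins such as Sema4C bind, was above the floor with both of its probe sets on design A. The probe set 160311_at read 100.7, 99.0 and 96.6, at percentile 74.8 ± 0.30 (SD, n = 3). Its range over the replicates, 0.060 log2 units, was among the narrowest, wider than that of 4.23% of probe sets within 5 percentile points of it on the same design. The probe set 96464_at read 49.6, 56.4 and 59.3, at percentile 58.4 ± 3.2, and its values did not overlap those of the first. The log2 differences from the floor were 1.53 ± 0.072 and 0.68 ± 0.078 (SE; limma, adjusted p = 1.9e-06 and 0.00016). The second call was lost with the floor at the 60th percentile.

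Of the A-type plexins, which act with neuropilins as receptors of class 3 semaphorins, the guidance genes read here include Plxna1 and Plxna2. The others, Plxna3 and Plxna4, lay at mean percentiles of 85.3 and 72.2, with every probe set above the floor. No probe set of Plxna1 exceeded the floor. It read 28.4, 27.8 and 34.0 on design A (97699_at), where replicate 3 came close to the floor of 34.9, and the log2 difference of -0.19 ± 0.083 (SE) did not pass (limma, adjusted p = 0.064). Without replicate 3 it was called below the floor (-0.27; limma, adjusted p = 0.036). It was also called below at each of the higher floors, by -0.56 at the 50th percentile (limma, adjusted p = 0.00067). On design C (166916_i_at) it read 11.2, 12.1 and 12.9, below the floor on every array (-1.07 ± 0.077, SE; limma, adjusted p = 3.4e-05).

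Plxna2 had 5 probe sets, which disagreed. On design B, 114755_at read 128, 105 and 98.6, at percentile 79.5 ± 2.8 (SD, n = 3), while 106447_at on the same arrays read 26.8, 19.0 and 24.1, at 25.4 ± 5.8. The ranges of these probe sets of 1 gene lay on opposite sides of the floor (limma, adjusted p = 2.9e-06 above and 0.0015 below). On design A, 95368_at read 27.4, 23.0 and 26.2, below the floor on all 3 arrays (limma, adjusted p = 0.0026). On design C, 167172_i_at read 68.3, 35.8 and 43.5, above the floor (limma, adjusted p = 0.0037), with replicate 1 well above the others. This call was lost with the floor at the 60th percentile (log2 difference 0.17; limma, adjusted p = 0.38), and at the tissue-foreign floor described below the probe set was called below it (-1.05; adjusted p = 7.8e-06). On design C the tissue-foreign floor stood between 92.6 and 107 intensity units, at percentiles 83.1 to 85.4 of the arrays. It rests there on 15 probe sets, of which the highest, of Prm1 and Ckm, have names ending in _r_at. The remaining probe set, 170413_at, read 15.9, 20.02 and 24.2 (limma, adjusted p = 0.033 below the 40th percentile floor), with replicate 1 the lowest. The Plxna2 probe sets of design C thus did not move together over the replicates. That call was lost without replicate 1 (log2 difference -0.21; limma, adjusted p = 0.13) and without replicate 2 (-0.37; adjusted p = 0.071). The gap between the lowest and highest Plxna2 probe set was 54.0 percentile points, beside a median of 65.8 for the 323 genes with 5 probe sets, so a disagreement of this size was common on these arrays.

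**Figure D2:**
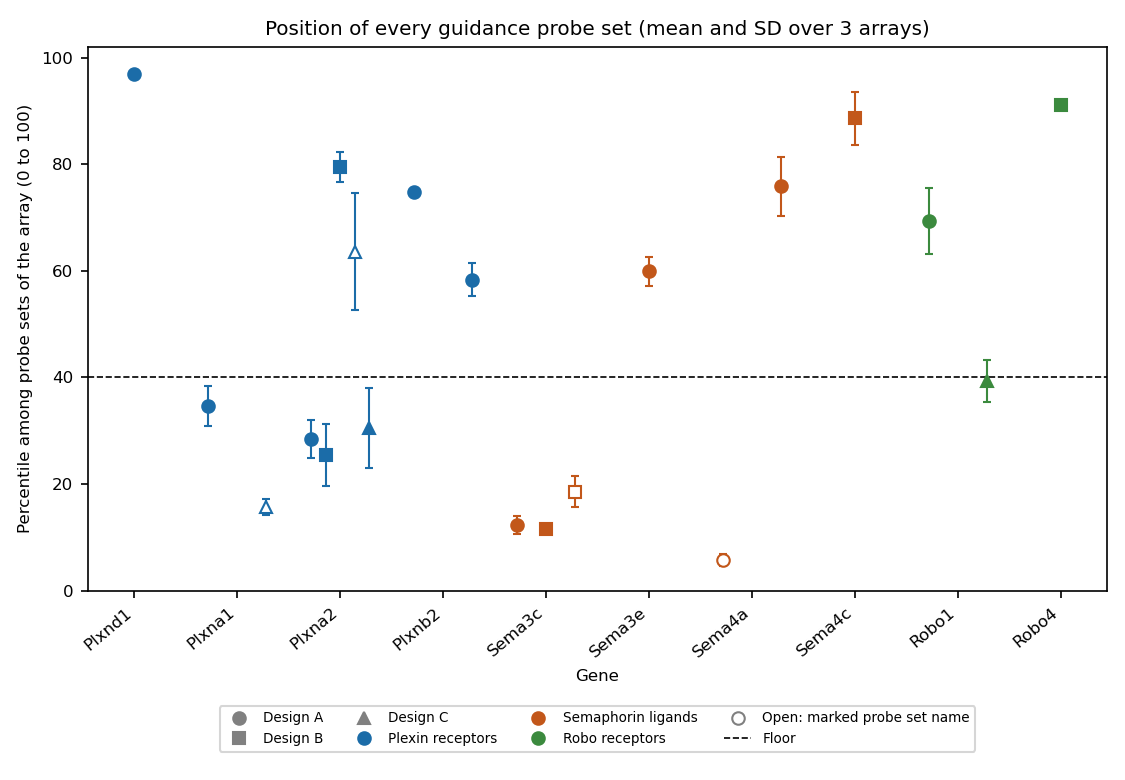
Percentile of each guidance probe set among the probe sets of its array (y axis), as mean and SD over 3 arrays, by gene. Colours give the family, shapes the array design, and open symbols mark probe sets whose names end in _i_at or _r_at. Plxnd1 and Robo4 lie at 96.9 and 91.2, Sema3c between 11.5 and 18.5, and Plxna2, Sema4a and Robo1 have points on both sides of the dashed floor.

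The secreted ligands differed. Sema3c, which signals through neuropilins and plexins including plexin-D1, was low on each of its probe sets. It read 13.1, 15.7 and 15.8 on design A (101178_at), 13.8, 13.5 and 14.6 on design B (110193_at), and 16.8, 20.4 and 18.5 on design B (163742_i_at). None of these 9 readings reached 0.61 of the floor. All 3 probe sets were called below it, with log2 differences of -1.21 ± 0.081, -1.29 ± 0.072 and -0.89 ± 0.086 (SE; limma, adjusted p = 1.1e-05, 2.3e-06 and 4.3e-05). Sema3c was the gene whose probe sets lay closest together, within 7.04 percentile points, beside a median gap of 45.3 for the 2000 genes with 3 probe sets. The low position of all 3, at percentile 18.5 at most, limits the gap by itself, whereas that median covers genes at every position.

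Sema3e, the ligand of plexin-D1, had 1 probe set (92295_at, design A), which read 58.9, 52.8 and 61.0. All 3 arrays exceeded the floor, by 1.54-fold at the least. It lay at percentile 59.9 ± 2.8 (SD, n = 3), with a log2 difference from the floor of 0.75 ± 0.078 (SE; limma, adjusted p = 9.7e-05). This call rests on the height of the floor: at the 60th percentile the difference was -0.0037 (limma, adjusted p = 0.97). On design A the 90th percentile of 41 tissue-foreign probe sets, of genes specific to tissues such as liver and testis, read between 56.0 and 58.4. Sema3e exceeded that level in replicates 1 and 3 and not in replicate 2.

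Of the membrane-bound ligands, Sema4c, the partner of plexin-B2, had 1 probe set (163342_at, design B), which read 131, 233 and 199.6. Replicate 1 was the lowest, yet exceeded the floor 3.87-fold. The mean was 188 ± 51.8 (SD, n = 3), at percentile 88.6 ± 5.0, and the log2 difference from the floor was 2.42 ± 0.15 (SE; limma, adjusted p = 4.1e-06).

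Sema4a, which binds plexin-D1 and B-type plexins and also acts in immune cells and photoreceptors, had 2 probe sets on design A at opposite ends. The probe set 94063_at read 142, 84.5 and 97.7, at percentile 75.8 ± 5.6 (SD, n = 3; log2 difference from the floor 1.63 ± 0.15, SE; limma, adjusted p = 5.3e-05). The probe set 161530_r_at read 8.54, 11.0 and 9.47, at percentile 5.71 ± 1.1, the lowest of the 20 (log2 difference -1.83 ± 0.090, SE; limma, adjusted p = 2.3e-06). Their gap was 70.1 percentile points, beside a median of 25.8 and an upper quartile of 45.7 for the 4303 genes with 2 probe sets. The name of the lower one marks it as built with relaxed probe selection rules. On 94063_at replicate 1 stood above the others. On the same arrays the photoreceptor markers summed to 451, 481 and 484, lowest in replicate 1. The retinal neuron markers summed to 2542, 1665 and 1858, but without 102376_r_at of the bipolar cell gene Pcp2, another relaxed-rule probe set, to 644, 657 and 568, with replicate 2 the highest. The plain Pcp2 probe set, 162452_at, lay below the floor at percentile 14.3. The microglia and macrophage markers summed to 816, 632 and 747, and without the relaxed-rule 161832_r_at of Csf1r to 475, 506 and 504. The high sums of replicate 1 in the neuron and microglia lists therefore rested on 1 probe set each, and the part of any of these cells in the Sema4a reading was not tested.

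The Robo receptors were read on different designs. Robo4 (108012_at, design B) read 229, 217 and 200.3, a narrow range in which each array exceeded the floor at least 5.70-fold. The mean was 215 ± 14.3 (SD, n = 3), at percentile 91.2 ± 0.87, with a log2 difference from the floor of 2.65 ± 0.082 (SE; limma, adjusted p = 1.7e-07). Robo1 read 88.1, 95.4 and 61.1 on design A (103675_at), at percentile 69.3 ± 6.2, above the floor (log2 difference 1.23 ± 0.14, SE; limma, adjusted p = 0.00015), with replicate 3 the lowest. On design C (136678_at) Robo1 read 24.95, 27.4 and 22.5 against floors of 25.3, 25.4 and 25.4, so replicate 2 alone exceeded the floor. The log2 difference of -0.031 ± 0.084 (SE) did not pass (limma, adjusted p = 0.74). This probe set was called below at each of the higher floors, by -0.39 at the 50th percentile (limma, adjusted p = 0.0047).

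Within each design the guidance probe sets were put in order of position and neighbours were compared by the range of their 3 readings. Of 17 neighbouring pairs, 5 had overlapping ranges. On design A these were Plxnb2 (96464_at) with Sema3e and Plxnb2 (160311_at) with Sema4a (94063_at). On design B they were Sema4c with Robo4 and Sema3c (163742_i_at) with Plxna2 (106447_at), and on design C Plxna2 (170413_at) with Robo1. The 4 genes with 1 probe set (Plxnd1, Sema3e, Sema4c, Robo4) all exceeded the floor on every array, beside 58.7% of all single-symbol probe sets. Of the 6 genes with several, Plxna2, Sema4a and Robo1 had some that did and some that did not. The same counts over all genes were not taken, nor that of overlapping pairs, so none of these counts sets the guidance genes apart.

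The spread between replicates was slightly wider than on the arrays as a whole, by a median log2 range of 0.29 beside 0.25 for all single-symbol probe sets. Of the 20 probe sets, 5 spread more widely than 90% of probe sets within 5 percentile points on their design. They belonged to Plxna2 (167172_i_at, 0.93 log2 units, and 170413_at, 0.60), Sema4c (0.83), Sema4a (94063_at, 0.75) and Robo1 (103675_at, 0.64). No replicate was the extreme one for all of them: replicate 1 was highest for Plxna2 (167172_i_at) and Sema4a, lowest for Sema4c and for Plxna2 (170413_at), and replicate 3 was lowest for Robo1.

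**Figure D3:**
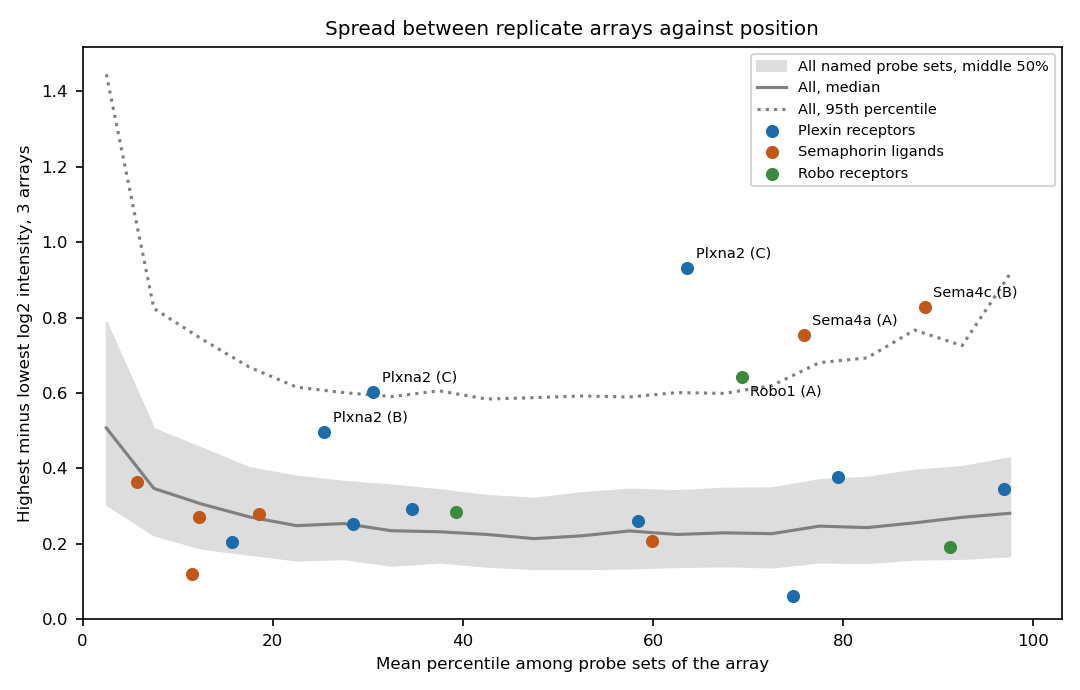
Highest minus lowest log2 intensity over the 3 arrays (y axis) against mean percentile (x axis) for the 20 guidance probe sets, over the median, quartiles and 95th percentile of all named probe sets in bins of position. Plxna2 on design C spreads by 0.93, Sema4c by 0.83 and Sema4a by 0.75 log2 units, while Plxnb2 (160311_at) spreads by 0.060.

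Other genes of these pathways were read from lists of 89 genes, of which 85 had probe sets. Of their 165 probe sets, 97 were called above the floor and 47 below by limma, and the median percentile was 55.1. These lie near the background of 54% above, 34% below and a median percentile of 52.1, and the small lists below were not tested against it. Among other plexins, 5 of 8 probe sets were above and 2 below. Plxna3, a further A-type plexin, read 413, 246 and 669.9 on design B (113278_at), a wide spread with every array above the floor, and 92.2, 108 and 92.2 on design A. Plxnc1, a receptor of Sema7A, lay at percentile 24.5 ± 5.2 (SD, n = 3). Of 16 probe sets for neuropilins and other co-receptors, 9 were above the floor and 5 below. Nrp1, a co-receptor of class 3 semaphorins and of VEGF, read 577, 659.7 and 459 with 95016_at and 139, 138 and 133 with 92773_at, above the floor on all arrays. Nrp2 read 94.59, 94.96 and 70.55, at percentile 73.0 ± 5.1. The list ran from Nrp1, at a mean percentile of 88.6, to the adhesion molecule gene Alcam at 7.93.

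Of 10 probe sets for other class 3 semaphorins, 3 were above the floor and 6 below, and their median percentile was 23.6. Sema3g, an arterial semaphorin, had the highest mean, at percentile 98.9 ± 0.045 (SD, n = 3), while Sema3a, the classic repellent of axons, had the lowest mean, 20.5 ± 1.0. Classes 4 to 7 had 14 of 24 probe sets above the floor and 7 below. Their means ran from Sema6c at 96.0 ± 1.1, on 160700_i_at alone, to Sema4b at 25.5 ± 0.97. Among Slits, other Robos and their partners, 8 of 15 were above and 5 below. The heparan sulphate proteoglycan gene Gpc1, whose product binds Slits, had the highest mean, 72.7 ± 1.6, with probe sets from 39.1 to 94.2. Robo2 had the lowest mean, 9.51 ± 0.056. Of 14 probe sets for netrins and their receptors, 6 were above and 5 below. Unc5b, a netrin receptor that also binds Robo4, lay at 99.6 ± 0.16 with 112955_at, at 58.4 ± 2.0 with 106800_at and at 60.7 ± 0.74 with 112956_at, and the netrin-G gene Ntng1 had the lowest mean, 8.18 ± 1.7. Intracellular effectors had 52 of 78 probe sets above the floor and 17 below, with Farp1, a plexin-linked exchange factor, at 96.2 ± 0.24 and the collapsin response gene Dpysl4 at 14.8 ± 0.30.

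**Figure D4:**
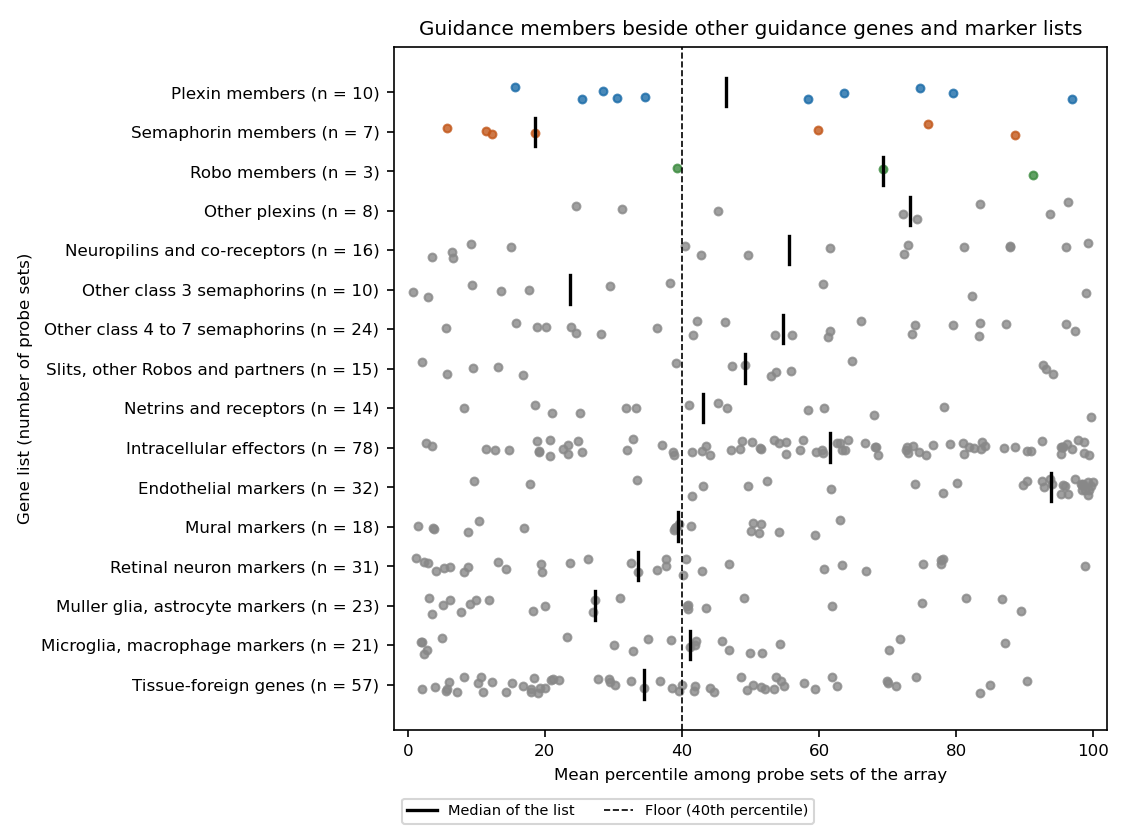
Mean percentile (x axis) of every probe set of the guidance genes, of other guidance gene lists and of 5 marker lists and the tissue-foreign genes, with a bar at each list's median and a dashed line at the floor. Endothelial markers have a median of 93.8 and the 20 guidance probe sets of 48.8, and the class 3 semaphorins outside the 10 genes have a median of 23.6.

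Semaphorins and A-type plexins are also made by retinal neurons and glia, and Sema4a by immune cells. In the retinal neuron list, 9 of 31 probe sets were above the floor and 16 below, and Calb2, a gene of amacrine and ganglion cells, had the highest mean percentile, 75.2 ± 4.7 (SD, n = 3). In the Muller glia and astrocyte list, 6 of 23 were above and 13 below, led by Apoe at 62.7 ± 0.60, with probe sets from 11.8 to 89.5. In the microglia and macrophage list, 7 of 21 were above and 8 below, led by Csf1r at 62.8 ± 3.2. That lead rests on the relaxed-rule 161832_r_at, at percentile 87.2, since the plain 104354_at lay at 38.4. In the photoreceptor list 5 of 11 were above and 5 below, led by Crx at 70.8 ± 1.3, and in the erythroid list 4 of 6 were above, led by Hba-a1 at 75.1 ± 1.3. In the mural list, 7 of 18 were above and 6 below, led by Kcnj8 at 59.5 ± 7.7, and Pdgfrb, the antibody's target, read 34.4, 25.5 and 40.7. Tissue-foreign genes had 20 of 57 above and 28 below, so a call above the floor by itself does not show that a transcript was present. No marker probe set was at 0. The part of such cells in the guidance readings was not tested, and in sorted bulk samples fewer cells of a type and less RNA per cell cannot be told apart.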

How the data were processed

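The 3 tables, 1 per array design, hold linear intensities per probe set as deposited by the authors. Neither the summary algorithm nor the scaling is given in the sources used here, and no detection calls were used. The 7 values of exactly 0 were set to the lowest positive reading on the same array. Per the labels' protocols, retinas were dissociated with papain, sorted by FACS, and their RNA amplified before biotin labelling.

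Of 36701 probe sets, the platform annotation gave 1 symbol to 29131, several to 724, and 6846 were unnamed here. No coordinates are printed, since no genome build is named for the probe sets. Floors and percentiles were computed per array with Python 3.11.15 and pandas 2.3.3. Log2 intensity minus log2 floor was tested against 0 with limma 3.58.1 (lmFit, eBayes, two-sided, all probe sets of a design, Benjamini-Hochberg adjustment), after a check on simulated data. SE values are limma's moderated ones. The number of arrays limits the precision.

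The members and gene lists were chosen with earlier results of these data known. Of other lists, the genes with the highest and lowest mean percentile (markers: the highest) were named by rule, with Nrp1, Nrp2, Tek and Pdgfrb. Pcp2 and Plxna4 were named, and marker sums taken without their strongest probe set, after the values were seen. Alternatives were other floors, probe set choices, a pseudocount, quantile normalization and leaving out replicates.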

Additional observations from a re-analysis of the deposited data

How the results depend on the processing

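The count of 10 guidance probe sets above the floor, by either rule, was 10 with the floor at the 50th percentile, 7 at the 60th and 7 at the 90th percentile of tissue-foreign genes, which on design B rests on 1 probe set. It stayed at 10 without each replicate. The count of 8 genes held at the 50th percentile, beside 63.4% of all named genes. Under the last pair of floors it became 7, beside 53.4% and 54.3%. The tissue-foreign floor differed between designs. It stood at percentiles 59.2 to 60.7 on design A, 38.3 to 40.9 on B and 83.1 to 85.4 on C. The design C floor rests on 15 probe sets. All single-symbol probe sets passed at 58.7%, 48.8%, 39.1% and 39.8% under the 4 floors. The median percentile of 48.8 moved to 59.1 with plain probe sets alone, 57.1 with the mean of each gene's probe sets and 75.3 with the strongest one, which favours genes with many. Without a replicate it ranged from 47.7 to 49.1. The median log2 range of 0.29 became 0.27 after quantile normalization, 0.12 with 50 added (0.10 over all single-symbol probe sets) and 0.36 for probe sets above the floor (0.23 over all). Over 2 arrays, where a range cannot grow, it was between 0.21 and 0.23.

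Of 156 single probe set results under other settings, 140 kept their direction and their side of the threshold. The 6 that changed sign were Plxnb2 (96464_at) at the 60th percentile (-0.069) and the tissue-foreign floor (-0.068), Sema3e at the same floors (-0.0037 and -0.0033), Plxna2 (167172_i_at) at the tissue-foreign floor (-1.05) and Robo1 (136678_at) without replicate 3 (0.043; from -0.099 to 0.043 over the 3 replicates left out). The higher floor itself accounts for all but the last. There the array left out, replicate 3, held the lowest reading of a probe set that lay at the floor, and why it read lower was not tested. No paired analysis was possible because the designs that share replicate numbers carry different probe sets of 1 condition, so no groups were compared. No summary scaling other than the deposited one could be tried, since probe-level signals were not used here.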
